A study of Mus musculus with 8 samples.

Results

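The odorant receptor genes with the symbols Olfr1 to Olfr400 were followed through a comparison of nucleus accumbens RNA from mice given cocaine and mice given saline. The rule that chose them uses the symbol in the array annotation and no measured value. Earlier results of these data were known when they were chosen. The annotation held 226 genes with such a symbol, represented by 251 array features, and all 226 were among the 31334 genes tested. Of these 31334, 19087 had a symbol. The others were single features without 1 symbol, control spots among them, and "all genes" below counts each of these as a gene. The other 174 numbers of the range were not in the annotation used here. The limit at number 400 is one of naming only. The highest-numbered genes inside it, Olfr397, Olfr398 and Olfr399, had log2 cocaine over saline ratios of -0.030, 0.015 and -0.029, and the next genes outside it, Olfr401, Olfr402 and Olfr406, had ratios of -0.086, -0.56 and 0.15.

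Odorant receptors are G protein-coupled receptors that detect volatile compounds in the cilia of olfactory sensory neurons. Each such neuron transcribes 1 allele of 1 receptor gene and keeps the remaining receptor genes closed in heterochromatin. A bound odorant activates the G protein subunit encoded by Gnal, adenylate cyclase Adcy3 and a cyclic nucleotide-gated channel. The nucleus accumbens, a part of the ventral striatum that receives dopamine from the midbrain, is made up mostly of medium spiny neurons and is not a site of odour detection. A few odorant receptors have known roles outside the nose in mouse, among them Olfr78 in the kidney and carotid body.

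The animals were male mice taken through a conditioned place preference procedure, in which an injection is paired with a place. Per the labels, the cocaine mice received 15 mg/kg of cocaine on days 2, 3 and 4, and the saline mice received saline solution on those days. The sources used here name neither strain nor age. Aliquots of 75 ng of total RNA were amplified and labelled with 1 of the dyes Cy5 and Cy3. The array was a 2-colour oligonucleotide array of the mouse genome. The titles give a different cocaine code and a different saline code for each of the 4 hybridisations. Whether a code stands for 1 mouse is not stated. The cocaine RNA carried Cy5 in 2 hybridisations (cocaine in Cy5, replicates 1 and 2) and the saline RNA carried Cy5 in the other 2 (saline in Cy5, replicates 1 and 2). Every hybridisation was scanned on an Axon and on an Agilent instrument. The series text speaks of 5 measurements and of 4 nuclei per treatment, and whether nuclei were pooled cannot be read from it.

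Each deposited value is a log2 channel ratio and holds no signal level. Whether the receptor genes were transcribed in these samples, and the label of a silent set of genes, therefore could not be checked from levels. The ratios were read as cocaine over saline, which the labels make likely without stating it. If this were reversed, all cocaine and dye signs below would turn. Gene names rest on an array layout found from the data, under which 7325 pairs of features with a common accession gave r = 0.51, against -0.0089 in the table's plain order. Over all genes 8 differed between cocaine and saline mice, a count that was 0 under 4 of 14 alternative settings and 288 at most. Of these 8, 5 had a symbol. Tbr1 and Neurod6, which mark cortical projection neurons, were lower in cocaine mice at -1.45 ± 0.18 and -1.13 ± 0.19 on the log2 scale (SE, n = 4 hybridisations, limma adjusted p = 0.00602 and 0.0375). None of the 6 measured medium spiny neuron markers passed, and all 6 had ratios above 0, between 0.21 and 0.69. In tissue RNA, fewer cells of a type and less RNA per cell cannot be told apart, and the part of either in the receptor values was not tested.

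The receptor genes lie in clusters over much of the genome. Of the 226 members, 225 matched the RefSeq gene table by gene identifier, 223 of these as protein coding and 2 as transcribed pseudogenes. Promoter windows of RefSeq on build GRCm38.p6, 250 bases before to 50 bases after the annotated start, were found for 185 members, with 186 windows in all. The members with a window lay on 16 chromosomes, with 34 on chromosome 2, 30 on chromosome 11, 29 on chromosome 17, 23 on chromosome 16 and 20 on chromosome 7. In 121 of the 186 windows the start coincided with an ATG, so the annotated start there may be that of the coding sequence, and the window need not hold the transcription start. The windows were poor in G and C, with a median of 36.7%, against 52.7% over all 32851 windows of the table, and the median number of CG dinucleotides was 1, against 7.

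Windows of 5 members are printed here because the results below turn on these genes. Olfr339 had the highest cocaine ratio of the members. Olfr135, at -0.60, and Olfr382, at 0.55, lay near the ends of the range, but Olfr170 was lower than Olfr135 and Olfr100 higher than Olfr382. Olfr63 had the highest dye ratio and Olfr93 the lowest. Each is written 5′ to 3′ on the strand of its gene, and capitals mark the word TAATTA, the core of many homeodomain factor sites. The Olfr339 window is chr2:36421150-36421449 (plus strand), that of Olfr135 is chr17:38207997-38208296 (plus strand), and that of Olfr382 is chr11:73517148-73517447 (minus strand). The Olfr63 window is chr17:33268476-33268775 (plus strand) and that of Olfr93 is chr17:37151921-37152220 (minus strand). In all 5 an ATG stands at the start.
Olfr339: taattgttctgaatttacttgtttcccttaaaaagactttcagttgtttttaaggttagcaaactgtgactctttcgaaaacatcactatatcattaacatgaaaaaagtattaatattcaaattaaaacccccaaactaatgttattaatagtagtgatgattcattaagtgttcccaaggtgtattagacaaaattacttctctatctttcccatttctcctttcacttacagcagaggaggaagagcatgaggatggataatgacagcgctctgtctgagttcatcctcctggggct
Olfr135: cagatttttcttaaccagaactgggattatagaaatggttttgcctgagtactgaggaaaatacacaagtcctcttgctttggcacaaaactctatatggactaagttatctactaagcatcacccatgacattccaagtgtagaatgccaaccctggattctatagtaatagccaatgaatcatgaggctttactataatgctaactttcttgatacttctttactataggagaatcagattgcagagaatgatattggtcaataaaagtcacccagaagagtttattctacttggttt
Olfr382: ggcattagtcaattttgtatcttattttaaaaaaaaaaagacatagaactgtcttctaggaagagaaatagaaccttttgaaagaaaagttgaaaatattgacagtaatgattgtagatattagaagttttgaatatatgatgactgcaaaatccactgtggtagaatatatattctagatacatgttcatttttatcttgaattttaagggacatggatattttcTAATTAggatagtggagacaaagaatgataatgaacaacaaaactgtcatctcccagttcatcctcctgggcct
Olfr63: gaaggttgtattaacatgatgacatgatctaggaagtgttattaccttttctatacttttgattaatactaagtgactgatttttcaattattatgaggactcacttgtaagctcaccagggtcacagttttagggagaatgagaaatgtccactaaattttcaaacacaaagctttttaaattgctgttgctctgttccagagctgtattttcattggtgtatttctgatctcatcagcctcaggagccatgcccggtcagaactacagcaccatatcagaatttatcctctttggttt
Olfr93: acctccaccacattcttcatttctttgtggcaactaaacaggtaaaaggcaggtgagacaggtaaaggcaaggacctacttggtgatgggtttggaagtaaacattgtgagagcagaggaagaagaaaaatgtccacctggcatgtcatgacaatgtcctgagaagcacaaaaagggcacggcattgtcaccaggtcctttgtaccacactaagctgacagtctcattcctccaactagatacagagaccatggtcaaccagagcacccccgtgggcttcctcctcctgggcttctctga

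Of these 5 windows, that of Olfr382 holds TAATTA, 24 bases before the start. Over the members, 27 of 186 windows (14.5%) held the word on either strand, against 5.29% of all windows. TATAAA, the core of the TATA box, was found in 29.0% of the members' windows and 13.6% of all windows. GGGCGG, the core of Sp1 sites, was found in 1.61% and 35.7%. TCCCNNGGGA, a form of the site bound by the Ebf factors of olfactory neurons, was found in 4 of the members' windows (2.15%) and in 0.904% of all windows. Matches of different words may overlap, and the shares follow base composition as well as the words themselves. The 27 members with TAATTA had a median dye ratio of -0.76 and a median cocaine ratio of 0.011, and the 158 without it had medians of -0.77 and -0.033.

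The question put to the receptor genes was whether their ratios differed between cocaine and saline mice. No member passed limma's test at an adjusted p below 0.05 over all genes, and the lowest adjusted p among members was 0.588. Of all genes, 0.0255% passed. At an unadjusted p below 0.05 there were 14 members, 5 higher and 9 lower in cocaine mice. This is 6.20% of the members, against 6.04% of all genes and 5.06% of genes with a symbol. The members' cocaine ratios had a median of -0.021 on the log2 scale, with quartiles at -0.14 and 0.11 and a range from -0.61 to 0.56. Of the 226, 103 lay above 0 (45.6%), against 56.6% of all genes, whose median was 0.032. Of genes with a symbol 59.9% did, with a median of 0.045. The members' median changed sign under 3 other normalizations, at 0.022, 0.023 and 0.029. The standard errors of the members had a median of 0.18 and lay between 0.17 and 0.28, so the middle of the members' distribution lay within 1 standard error of 0. Where cocaine in Cy5 replicate 1 was left out, 288 of the 31334 genes passed, among them a member. This was Olfr203, with values of 0.19 and -2.40 with cocaine in Cy5 and of 0.68 and 0.80 with saline in Cy5, at -0.83 ± 0.23 in 3 hybridisations (limma adjusted p = 0.0403) and -0.18 ± 0.28 in all 4 (limma adjusted p = 0.942). The 2 values of Olfr203 with cocaine in Cy5 stood far apart, and the removal left the lower one. In that fit Olfr203, Olfr183 and Olfr99 had the same standard error of 0.23. It reflects a spread pooled over genes, not that of Olfr203 alone.

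Olfr339 had the highest ratio among members and was the only member whose centred ratio had the same sign in all 4 hybridisations. Its values were 0.75 and 0.67 in the cocaine in Cy5 hybridisations, and 0.78 and 0.028 in the saline in Cy5 hybridisations. All 4 were above 0, but the value of 0.028 in saline in Cy5 replicate 2 is the mean of 0.62 on the Axon scan and -0.56 on the Agilent scan, so its sign rests on scans that disagree. The ratio was 0.56 ± 0.18 (SE, n = 4, limma adjusted p = 0.654). The share of genes at large with a common sign in all 4 was 1.84%. These counts hold for scans centred on their median. After a loess along the dye profile, described below, 37 members (16.4%) had a common sign, against 19.1% of all genes.

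In 219 of the 226 members (96.9%) the dye coefficient was larger in size than the cocaine coefficient, against 93.2% of all genes, and Olfr339 was among the 7 exceptions. Olfr100, the next by p, had values of -0.10 and -0.25 with cocaine in Cy5 and of 1.95 and 0.62 with saline in Cy5. Its high value came from saline in Cy5 replicate 1, and the ratio was 0.56 ± 0.20 (limma adjusted p = 0.755). Olfr382 had values of 0.054 and -0.45 with cocaine in Cy5 and of 2.08 and 0.50 with saline in Cy5. The same hybridisation was the high one, and the ratio was 0.55 ± 0.22 (limma adjusted p = 0.784). Without saline in Cy5 replicate 1 the ratio was 0.22 for Olfr100 and 0.15 for Olfr382. The other 7 of the 10 members of smallest p above 0 were Olfr110, Olfr52, Olfr64, Olfr193, Olfr262, Olfr48 and Olfr20, with ratios between 0.30 and 0.48.

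Below 0, Olfr170 and Olfr135 stood lowest. Olfr170 had values of -2.39 and -1.46 with cocaine in Cy5 and of 0.30 and 1.09 with saline in Cy5. The ratio was -0.61 ± 0.20 (limma adjusted p = 0.640). Olfr135 had values of -1.83 and -1.05 with cocaine in Cy5 and of 0.11 and 0.37 with saline in Cy5, and its ratio was -0.60 ± 0.18 (limma adjusted p = 0.588). For these genes the values with cocaine in Cy5 were below 0 and the values with saline in Cy5 above it, and cocaine in Cy5 replicate 1 was the lowest. Without that hybridisation the ratio was -0.38 for Olfr170 and -0.40 for Olfr135. Olfr91 had values of -1.01 and -1.31 with cocaine in Cy5 and of -0.15 and 0.49 with saline in Cy5, so that 3 of 4 were below 0, and its ratio was -0.49 ± 0.18 (limma adjusted p = 0.755). The other 7 of the 10 members of smallest p below 0 were Olfr51, Olfr344, Olfr356, Olfr96, Olfr62, Olfr156 and Olfr153, with ratios between -0.47 and -0.38.

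A panel of 8 receptors with a ligand or a site of expression known in mouse showed no call. Olfr78, which responds to short-chain fatty acids and is expressed in renal and carotid body cells, had values of -0.74 and -0.50 with cocaine in Cy5 and of 0.74 and 0.60 with saline in Cy5. The 2 orientations nearly mirrored each other, and the ratio was 0.026 ± 0.17 (limma adjusted p = 0.988). Olfr16, which is also expressed in sperm, had a ratio of -0.16 ± 0.19, and Olfr2, a receptor for octanal, had a ratio of 0.27 ± 0.18. The acetophenone receptors Olfr151 and Olfr160 had ratios of 0.17 ± 0.19 and -0.19 ± 0.17, which differ in sign, and neither passed. Olfr73, a eugenol receptor, had a ratio of -0.0044 ± 0.18, Olfr17 had -0.17 ± 0.18, and Olfr15 had -0.24 ± 0.18. The lowest limma adjusted p of the 8 was 0.866, that of Olfr2.

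The sign of the members' ratios followed the dye orientation. The median centred ratio of the 226 members was -0.59 and -0.89 in the cocaine in Cy5 hybridisations and 0.61 and 0.78 in the saline in Cy5 hybridisations. Of the 226, 209 and 214 lay below 0 with cocaine in Cy5, and 211 and 212 lay above 0 with saline in Cy5. In the mean of both scans the members were also closer together than genes at large. Their interquartile ranges were 0.59, 0.61, 0.52 and 0.56 in the same order of hybridisations, against 1.30, 1.94, 1.06 and 1.55 over all genes. The receptor genes numbered above 400 had 0.55, 0.58, 0.59 and 0.60. On the Axon scans alone the members' standard deviations were 0.775, 0.701, 0.700 and 0.768, against 0.785, 1.01, 0.701 and 0.855 over all genes, so those of replicate 1 were close.

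**Figure D1:**
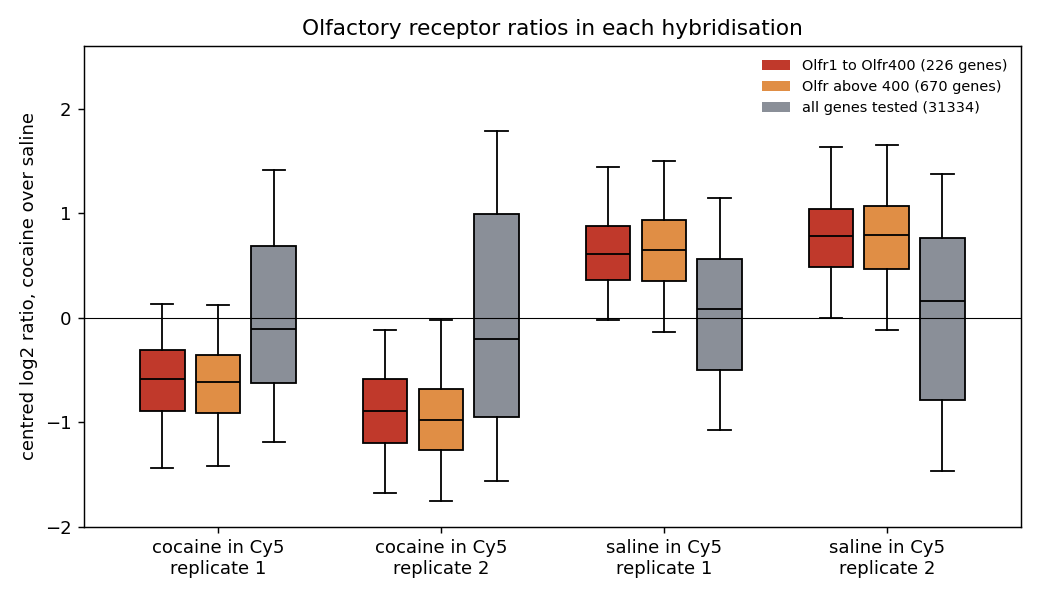
Box plots of the centred log2 cocaine over saline ratio in each of the 4 hybridisations, for the 226 members, the 670 receptor genes numbered above 400 and all 31334 genes tested. Boxes span the quartiles with the median as a line, and whiskers run from the 5th to the 95th percentile. The members' medians of -0.59 and -0.89 with cocaine in Cy5 turn to 0.61 and 0.78 with saline in Cy5.

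The fit estimates the dye effect beside the cocaine effect, as a log2 Cy5 over Cy3 ratio relative to the median of the array. Of the 226 members, 198 (87.6%) had a ratio towards Cy3 at a limma adjusted p below 0.05, and 2 had a ratio towards Cy5, with 26 not called. Over all genes 43.4% were called towards Cy3 and 34.5% towards Cy5. The 200 members called depend on the level to which a scan is set. They were 34 when each scan was centred on the receptor features numbered above 400, 32 on the Axon scans alone and 0 after a loess along the dye profile, which removes this effect by construction. The shares of all genes called for dye under these settings were not computed, so whether the lower counts are particular to the members is unknown. The members' dye ratios had a median of -0.76, with quartiles at -0.97 and -0.54. The median was -0.19 over all genes and 0.14 over genes with a symbol. The lowest were Olfr93 at -1.57 ± 0.20, Olfr193 at -1.43 ± 0.20, Olfr273 at -1.34 ± 0.18, Olfr69 at -1.33 ± 0.19 and Olfr92 at -1.31 ± 0.20 (SE, n = 4). Olfr93 had centred ratios of -1.65 and -0.84 with cocaine in Cy5, and of 1.45 and 2.33 with saline in Cy5.

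Only 11 members had a dye ratio above 0. Olfr63, at 0.90 ± 0.18, was called towards Cy5 (limma adjusted p = 0.000264), with centred ratios of 0.98 and 1.13 with cocaine in Cy5 and of -0.41 and -1.09 with saline in Cy5. All 4 had the opposite sign to the members' medians. Olfr279, at 0.42 ± 0.17 (limma adjusted p = 0.0303), was the other, and it is the mean of 2 features that differed. Olfr24, Olfr60 and Olfr124 had dye ratios of 0.34, 0.33 and 0.32 and were not called. The other 6 were Olfr339 at 0.15, Olfr187 at 0.14, Olfr166 at 0.12, Olfr175 at 0.077, Olfr59 at 0.013 and Olfr398 at 0.0039.

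**Figure D2:**
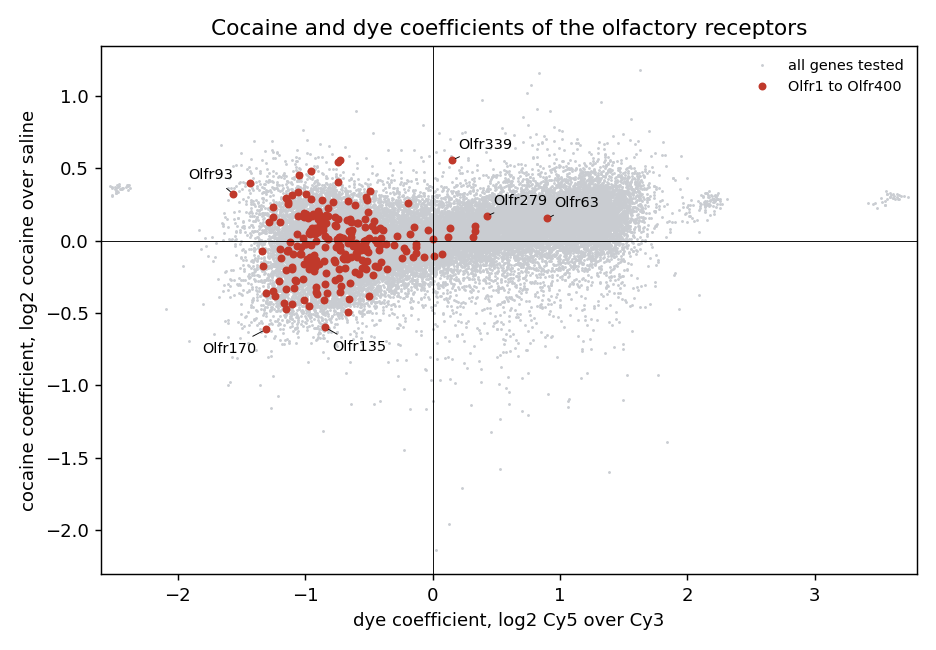
The cocaine coefficient (log2 cocaine over saline, vertical) against the dye coefficient (log2 Cy5 over Cy3, horizontal) of each gene, with the 226 members in red over all 31334 genes in grey. The members lie to the left, with a median dye ratio of -0.76, and are centred near 0 for cocaine at a median of -0.021. Olfr63, at 0.90, lies to the right.

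The dye ratio of a member went with how far its hybridisations disagreed. The 50 members with a dye ratio of -1 or below had a median residual standard deviation of 0.46, the 66 between -1 and -0.75 had 0.36, and the 67 between -0.75 and -0.5 had 0.30. The 11 members above 0 had a median of 0.21. Over all 226 the median residual standard deviation was 0.33, against 0.30 over all genes. Both values of a gene come from the same 4 ratios. Between -0.97 and -0.54 there were 112 members with a median cocaine ratio of -0.019, of which 5.36% had an unadjusted p below 0.05. The 8221 other genes in that range had a median of -0.063, and 5.41% of them had such a p. The median residual standard deviation in that range was 0.32 for the members and 0.34 for the other genes.

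Across genes, the members' ratios were correlated less closely between hybridisations than those of genes at large. Between hybridisations of the same orientation r was 0.48 (cocaine in Cy5) and 0.35 (saline in Cy5) over the 226 members, against 0.87 and 0.82 over all genes. Over the 670 receptor genes numbered above 400 it was 0.43 and 0.38. Between opposite orientations r ran from -0.43 to -0.24 over the members, against -0.89 to -0.75. These are descriptions across genes, which share arrays and are not independent replicates, and the members span a narrower range of ratios.

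Other chemoreceptor families gave like values. The 670 receptor genes numbered above 400 had a median cocaine ratio of -0.033 and a median dye ratio of -0.80, with 0 called for cocaine by limma, 44 at an unadjusted p below 0.05, and 590 called towards Cy3. The 130 vomeronasal receptor genes (Vmn1r and Vmn2r), which detect pheromones, had medians of -0.019 and -0.81, with 0 called, 5 at an unadjusted p below 0.05 and 121 towards Cy3. The 20 trace amine-associated and taste receptor genes had medians of -0.11 and -0.77, with 0 called, 0 at an unadjusted p below 0.05 and 19 towards Cy3. The 44 and 5 genes at an unadjusted p below 0.05 were 6.57% and 3.85% of their families, against 6.04% of all genes. Of all genes 43.4% were called towards Cy3. No difference between these families and the members was tested. Neighbouring members on a chromosome, 109 pairs, had cocaine ratios that correlated at r = 0.058 and dye ratios that correlated at r = 0.23, as a description. By chromosome, only the 185 members with a promoter window were counted. Among chromosomes with 10 or more of these, the median dye ratio ran from -0.92 on chromosome 16 to -0.66 on chromosome 11. The median cocaine ratio ran from -0.14 on chromosome 4 to 0.039 on chromosome 9.

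The 2 scanners read the same labelled RNA, so a difference between them is not one between mice. The members' cocaine ratios had a standard deviation over genes of 0.375 on the Axon scans and 0.125 on the Agilent scans, against 0.310 and 0.182 over all genes. The ratios of the 2 instruments correlated at r = 0.18 over the members and at 0.40 over all genes, and 121 of 226 members had the same sign on both. Read on the Axon scans alone, 25 members (11.1%) had an unadjusted p below 0.05, against 5.07% of all genes. Read on the Agilent scans alone, 6 (2.66%) did, against 6.60% of all genes. Only Olfr339 and Olfr91 did so on both, each in the same direction.

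Olfr339 had a cocaine ratio of 0.64 ± 0.22 on the Axon scans and 0.47 ± 0.18 on the Agilent scans. Olfr91 had -0.54 ± 0.22 and -0.44 ± 0.19. For these genes the fitted ratios of the instruments differed by less than the standard error. Single scans did not agree as closely. In saline in Cy5 replicate 2, Olfr339 read 0.62 on the Axon scan and -0.56 on the Agilent scan, and Olfr91 read -0.045 and 1.03. Olfr135, in contrast, had -1.21 ± 0.36 on the Axon scans and 0.0145 ± 0.15 on the Agilent scans. In cocaine in Cy5 replicate 1 its centred ratio was -3.11 on the Axon scan and -0.56 on the Agilent scan. Olfr170 had -1.09 ± 0.34 and -0.14 ± 0.14, and in the same hybridisation it read -3.60 on the Axon scan and -1.17 on the Agilent scan. Olfr52 had 0.98 ± 0.25 and -0.061 ± 0.15. Of the 14 members with an unadjusted p below 0.05, 11 had the same sign on both instruments, and all 14 were larger in size on the Axon scans. These 14 were chosen on the mean of both instruments, in which the Axon ratios had the wider spread.

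**Figure D3:**
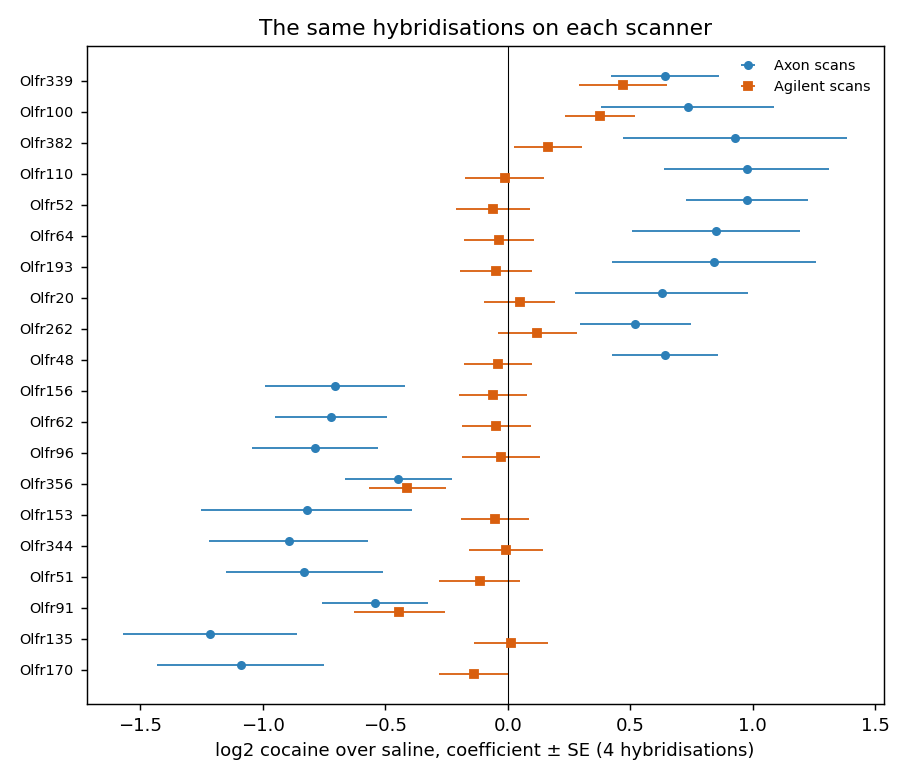
Cocaine coefficient (log2 cocaine over saline) with its standard error, from the Axon scans (blue circles) and from the Agilent scans (orange squares) of the same 4 hybridisations, for the 10 members of smallest p in each direction. For Olfr339 and Olfr91 the fitted values of the scanners differ by less than the standard error, and for Olfr135 the Axon value is -1.21 and the Agilent value 0.0145.

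Many deposited ratios of the members were exact ratios of small whole numbers. A value was counted where it lay within 0.00051 of the log2 of a ratio of 2 whole numbers up to 8, of which there are 43 distinct ones. Of 2008 values of the 251 member features over the 8 scans, 463 (23.1%) were such ratios, against 22.9% for the receptor genes numbered above 400, 14.3% for all features with 1 symbol and 5.27% for ribosomal protein features, whose messages are abundant in all cells. By scan, the share for the members lay between 17.9% and 29.9%, above that of all features in each of the 8 scans. Of the member features, 11.95% had no such value in any scan, against 77.3% of the ribosomal protein features. No intensities were used here, so the signals behind these ratios, and how near they lay to the limit of detection, are unknown.

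**Figure D4:**
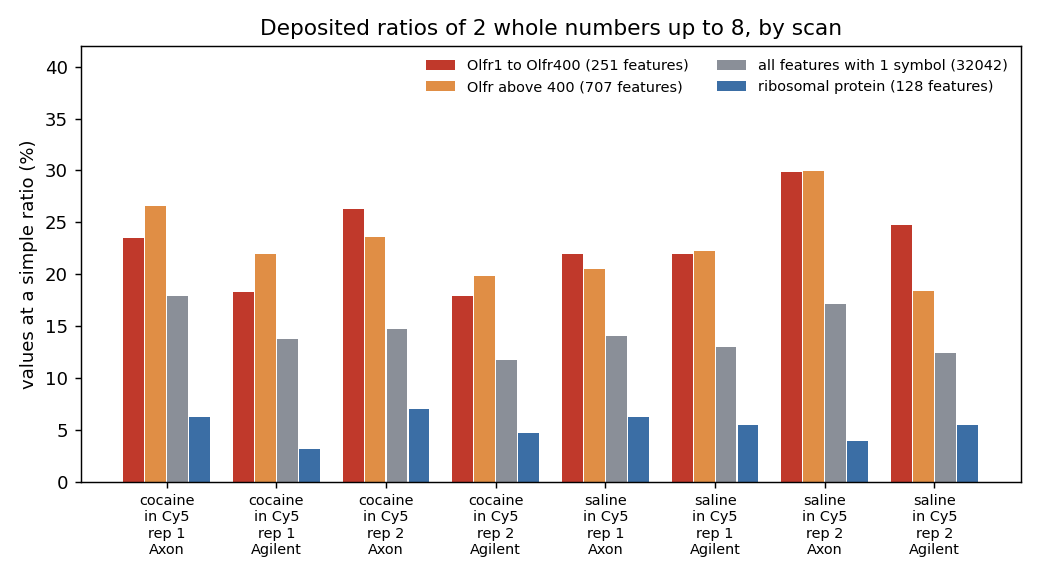
Share of deposited values (percent) that are ratios of 2 whole numbers up to 8, in each of the 8 scans, for member features (red), features of receptor genes numbered above 400 (orange), all features with 1 symbol (grey) and ribosomal protein features (blue). The members lie between 17.9% and 29.9% in every scan, and the ribosomal protein features lie lowest.

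For 212 members the value rests on 1 feature. Another 11 had 2 features, 2 had 3, and Olfr166 had 11. The 11 features of Olfr166 share 1 accession, and their cocaine ratios had a mean of 0.023 and a standard deviation of 0.14, with a range from -0.29 to 0.25. Their dye ratios had a mean of 0.12 and a standard deviation of 0.16. Within a hybridisation the 11 features had standard deviations of 0.28, 0.40, 0.24 and 0.30 (cocaine in Cy5 replicates 1 and 2, then saline in Cy5 replicates 1 and 2).

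Features of the same gene could also differ in sign. In Olfr175 the 2 features had dye ratios of 1.04 and -0.89, and in Olfr279 they had 1.31 and -0.47, so the means of 0.077 and 0.42 describe neither feature. These 2 genes and Olfr166 were the members whose features differed in the sign of the dye ratio, among 14 with several features. In 7 of the 14 the features differed in the sign of the cocaine ratio. Over the 13 members with 2 or 3 features, the range of the cocaine ratio between features had a median of 0.16 and lay between 0.047 in Olfr154 and 0.76 in Olfr77.

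**Figure D5:**
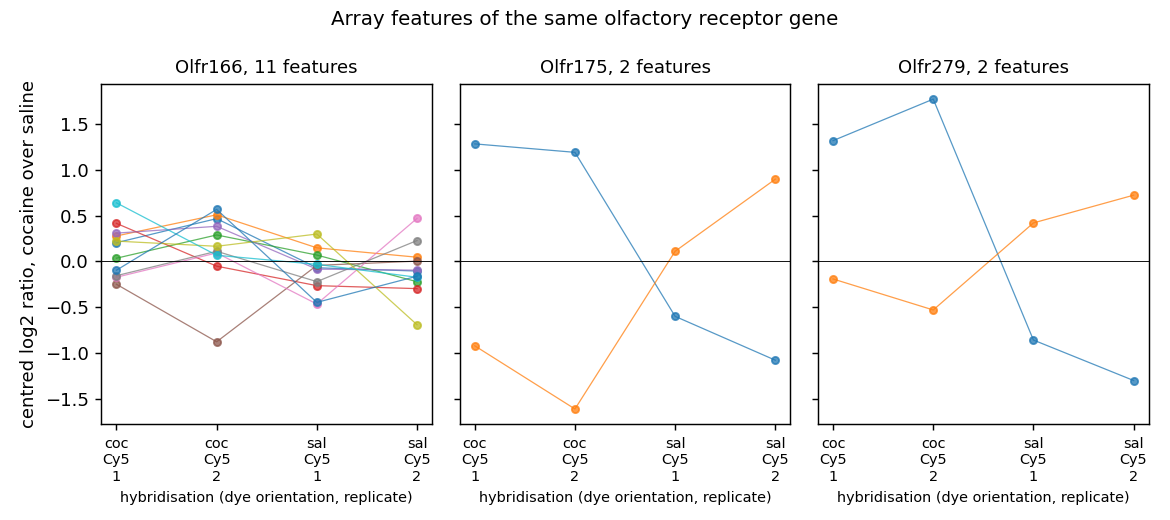
Centred log2 cocaine over saline ratio of every array feature of Olfr166 (11 features), Olfr175 (2) and Olfr279 (2) in the 4 hybridisations, with lines joining the values of a feature. The features of Olfr166 lie on both sides of 0, between -0.88 and 0.64, while the 2 features of Olfr175 and of Olfr279 cross, following opposite dyes.

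Genes that carry out olfactory transduction or govern receptor choice and transport were read from the same fit. None of the 15 measured of 16 transduction genes passed for cocaine by limma, against 0.0255% of all genes. There were 2 with an unadjusted p below 0.05, both higher, against 6.04% of all genes. Slc24a4, a sodium and calcium exchanger that ends the odour response, had values of 0.89 and 0.79 with cocaine in Cy5 and of 0.16 and 0.12 with saline in Cy5. All 4 were above 0, with a ratio of 0.49 ± 0.17 (limma adjusted p = 0.704). Ano2, the calcium-activated chloride channel of the cilia, had a ratio of 0.38 ± 0.18, and Omp, the olfactory marker protein, had -0.31 ± 0.19. None of the 15 measured of 16 genes for receptor transport and choice passed, and 0 had an unadjusted p below 0.05. The lowest p there were those of Rtp1, which carries receptors to the cell surface, at 0.37 ± 0.18, and of the transcription factors Ebf3 and Ebf2 at -0.26 ± 0.17 and -0.25 ± 0.19.

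Of the 15 transduction genes, 9 were called towards Cy5 and 2 towards Cy3 in their dye ratios, and of the 15 transport and choice genes, 9 and 5. Over all genes these shares were 34.5% towards Cy5 and 43.4% towards Cy3, and no difference between these lists and the receptors was tested. Gnal, which also couples dopamine receptors in the striatum, and Adcy3 had dye ratios of 0.66 ± 0.17 and 0.86 ± 0.19. Of the 7 markers listed for olfactory sensory neurons 6 were measured. Their median dye ratio was -0.023, with 2 called towards Cy5, 2 towards Cy3 and 2 not called, against a median of -0.76 for the receptors. Gng13 had 1.36 ± 0.17, the channel subunit Cnga2 0.80 ± 0.18 and Ano2 0.27 ± 0.18. Omp had -0.31 ± 0.19, Stoml3 -0.82 ± 0.17 and Rtp1 -0.88 ± 0.18. Rtp2, of the transport genes, had -0.86 ± 0.20. None of the 6 markers passed for cocaine by limma, and 1 had an unadjusted p below 0.05, against 6.04% of all genes. Ratios give no level, so the presence of such cells could not be read from these markers.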

How the data were processed

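The data are 8 scans of 4 two-channel arrays. The authors deposited log2 channel ratios, 44290 per scan. How they analysed the images, corrected background or normalized is not given in the sources used here. Stop values of 16.61 in size were treated as missing, and none fell on a member. Column medians lay between -0.885 and -0.617 with cocaine in Cy5 and between 0.637 and 0.823 with saline in Cy5, so the values were treated as not normalized between dyes. The columns had already been turned to 1 treatment direction, since the difference between scanners, Axon less Agilent, gave r of 0.51 and 0.52 within an orientation and -0.54 to -0.49 across orientations. Features with 1 symbol numbered 32042, the 47 with several were left unnamed, and 12201 had no symbol, control spots among them.

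Each scan was centred on its median, features of a symbol were averaged, and the 2 scans of a hybridisation were averaged to 1 replicate. The ratios of 31334 genes were fitted with limma 3.58.1 (R 4.3.3, lmFit and eBayes) with a cocaine and a dye coefficient and 2 residual degrees of freedom. Of these, 19087 had a symbol, and each feature without 1 symbol was fitted as a gene. Tests were two-sided, with Benjamini-Hochberg adjustment over all genes and a threshold of 0.05. The fit was tested on simulated data. The number of arrays limits the precision. Each p-value rests on the spread between 4 hybridisations, which eBayes draws towards a spread pooled over all genes. Olfr166, with a residual standard deviation of 0.014, thus had a standard error of 0.17. Tables and figures were made with Python 3.11.15, numpy 2.4.6, pandas 2.3.3 and matplotlib 3.10.9.

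Named genes are every member past the threshold, the 10 members of smallest cocaine p in each direction, a panel of 8 receptors, the 5 highest and 5 lowest dye ratios, and the 3 genes of smallest p of each pathway list. Genes named outside this rule (Olfr59, Olfr166, Olfr175, Olfr187, Olfr398, Olfr203 and others given for single values) were chosen after their values were seen. The members and lists were chosen with earlier results of these data known. Sequences are from RefSeq, GRCm38.p6. The 14 alternatives tried covered normalization, scanner, features, missing values, the dye term, the variance model and leaving out each hybridisation.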

Additional observations from a re-analysis of the deposited data

Results flagged for a closer look

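The dye effect separated the 2 orientations of the same comparison for most receptor genes, by limma's test of the dye coefficient. The members called for dye numbered 200 of 226, where 43.4% of all genes were called towards Cy3 and 34.5% towards Cy5, and the members' median dye ratio was -0.76 on the log2 Cy5 over Cy3 scale. The 5 lowest were Olfr93 at -1.57, Olfr193 at -1.43, Olfr273 at -1.34, Olfr69 at -1.33 and Olfr92 at -1.31, for which cocaine over saline ratios were below 0 with cocaine in Cy5 and above 0 with saline in Cy5. Olfr279 at 0.42 and Olfr63 at 0.90 were called in the opposite direction, and in Olfr279 the 2 features had dye ratios of opposite sign.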

How the results depend on the processing

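Under the 14 alternatives, 0 to 25 members had an unadjusted p below 0.05 by limma. The 0 was without a dye coefficient, where 0.077% of all genes did. The 25 (11.1%) were on Axon scans, where 5.07% of all genes did. No member passed for cocaine under 13 of 14 alternatives. The exception was without cocaine in Cy5 replicate 1, where Olfr203 passed, so the count ran from 0 to 1 when a hybridisation was left out. The count over all genes, 8, was 62 with each scan centred on receptor features numbered above 400, 0 with loess along the dye profile (2271 at an unadjusted p below 0.05 by limma), 0 with quantile normalization (2094), 0 on Axon scans (1585), 20 on Agilent scans, 30 with the median of features, 4 with stop values kept, 0 without a dye coefficient (24) and 16 with robust eBayes. Leaving out a hybridisation gave 66 to 288, namely 288 and 148 when replicate 1 or 2 of the cocaine in Cy5 hybridisations was removed, and 91 and 66 for replicate 1 or 2 of saline in Cy5. The count of members with a dye effect, 200, was 34 with the centring on receptor features, 0 with loess and 32 on Axon scans. The matching shares of all genes were not computed. The members' median dye ratio was -0.017 with the centring on receptor features, -0.051 with loess and -0.97 on Agilent scans. Loess flattens the dye profile, and the centring on receptor features sets their own level near 0, with a median dye ratio of 0.55 over all genes. The cause of the other shifts was not tested. Of 518 values of 37 named members under the alternatives, 29 changed sign. On Agilent scans these were Olfr110 at -0.012, Olfr52 at -0.061, Olfr64 at -0.037, Olfr193 at -0.049, Olfr48 at -0.040, Olfr135 at 0.0145, Olfr73 at 0.14, Olfr78 at -0.0060, Olfr151 at -0.22, Olfr60 at -0.023 and Olfr124 at -0.11. Olfr124 was -0.033 with loess and -0.036 with quantile normalization, and Olfr73 was 0.038 with the centring on receptor features, 0.051 with loess and 0.019 with quantile normalization. Over the fits that left out a hybridisation, Olfr124 ran from -0.0092 to 0.062, Olfr151 from -0.053 to 0.40, Olfr16 from -0.43 to 0.10, Olfr24 from -0.0054 to 0.21, Olfr273 from -0.23 to 0.093, Olfr63 from -0.018 to 0.33, Olfr69 from -0.39 to 0.043, Olfr73 from -0.21 to 0.20 and Olfr78 from -0.034 to 0.086. Each ratio sets cocaine RNA against saline RNA on 1 array, so the fit used this pairing and no further paired analysis was run. How far the signals lay above background is unknown.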
